A study of Mus musculus with 12 samples.

Results

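The mitochondrial genome transcripts were the rows of the count table whose mouse symbol starts with mt-, which gave 37 of the 46078 genes counted: 13 protein-coding genes, 2 ribosomal RNA (rRNA) genes and 22 transfer RNA (tRNA) genes on chromosome M of GRCm38. They were examined in spinal cord white matter of C57Bl6 mice, in 4 groups of 3 pools, with 5 mice in each pool: naïve young mice of 6 weeks, naïve middle-aged mice of 8 months, and young and middle-aged mice taken 72 h after lysolecithin, a detergent that strips myelin, had been injected into the ventrolateral white matter. No group carried a transgene or a deletion, and the injured groups were compared with naïve mice rather than with mice given a vehicle injection, so the effect of the needle and that of the detergent cannot be told apart. The tissue was cut from stained cryosections with a laser, and its RNA was amplified before sequencing. A pool averages 5 mice, so the spread between pools is not the spread between single mice.

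The mammalian mitochondrial genome is a small circle that encodes the RNAs of the mitochondrial ribosome, the tRNAs that ribosome needs and core subunits of the respiratory chain, while all other mitochondrial proteins come from nuclear genes. Each strand is transcribed as a long precursor, and the tRNAs lie between the other genes and are cut out to release the mature RNAs. Fragments of the mitochondrial genome have also been copied into nuclear chromosomes over evolution, and a read from such a fragment can match both places.

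The sequences printed here set stretches of members beside their annotated nuclear copies. Members with near-identical nuclear copies had few counts, and whether the copies had a part in this was not tested. The first pair is a stretch of mt-Co2, which encodes a subunit of cytochrome c oxidase, and of its annotated nuclear copy, the pseudogene Gm28661, and the second pair is a stretch of mt-Cytb, which encodes the cytochrome b of complex III, and of its closest annotated nuclear copy, Gm11410. Sequences were read from the GENCODE transcripts for GRCm38 and run 5′ to 3′ on the strand of the gene, and capitals mark each base that differs within a pair. The stretches lie at chrM:7308-7397 on the plus strand, chr1:24615181-24615270 on the minus strand, chrM:14672-14761 on the plus strand and chr4:80004516-80004605 on the plus strand.
mt-Co2: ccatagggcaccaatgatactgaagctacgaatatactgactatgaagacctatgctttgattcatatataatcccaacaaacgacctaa
Gm28661: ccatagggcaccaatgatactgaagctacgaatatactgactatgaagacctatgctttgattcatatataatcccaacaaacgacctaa
mt-Cytb: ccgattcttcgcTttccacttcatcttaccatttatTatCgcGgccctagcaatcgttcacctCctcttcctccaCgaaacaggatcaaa
Gm11410: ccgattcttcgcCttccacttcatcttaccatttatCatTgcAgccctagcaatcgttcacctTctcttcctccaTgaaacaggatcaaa

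Over these 90 bases the mt-Co2 pair differed at 0 positions and the mt-Cytb pair at 6. Along the whole alignment, Gm28661 matched 681 of the 684 bases of mt-Co2 with 0 mismatches, and Gm11410 matched mt-Cytb at 92.9% identity. The same block of chromosome 1 held pseudogenes that matched mt-Atp6 (Gm10925), mt-Co3 (Gm28437) and mt-Nd4l (Gm10222) with 0 mismatches over the aligned part and mt-Nd3 (Gm28438) with 1. The count table listed these 5 genes at or near 0. Their highest count in any pool was 19, and mt-Nd4l, a subunit gene of complex I, was at 0 in every pool. Gm28661 was at 0 in every pool as well. Gm10925 had 0 to 2 counts, Gm28437 had 0 to 1 and Gm10222 had 0 to 4. Gm28438 had 6 to 28 counts, more than the 0 to 10 of mt-Nd3 itself. For these 5 genes between 98.0% and 100% of the 50-base words of the transcript also occurred in an annotated nuclear gene, and they had 0 to 17.1 counts per kb and pool. The other 8 protein-coding genes shared between 0% and 62.2% of their 50-base words with annotated nuclear genes and had 698 to 29296 counts per kb and pool. These percentages leave out copies beyond annotated genes. mt-Atp8 was scored at 0% and had 2882 counts per kb and pool. Its last 43 bases matched Gm10925 without a mismatch, and the sequence beside that pseudogene was not searched. How reads that match several places were handled was not stated in the sources used here, and its part in these low counts was not tested. A fold change in mt-Co2, mt-Atp6, mt-Co3 or mt-Nd3 therefore rests on a handful of reads and is uncertain, and levels of mt-Co1 and mt-Nd4, which share part of their length with nuclear copies, may be understated.

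**Figure D1:**
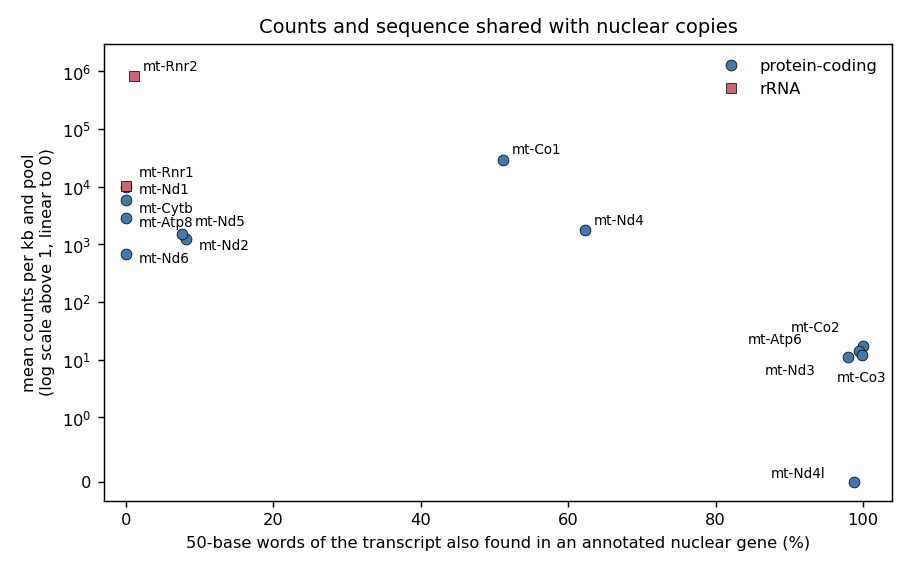
Mean counts per kb and pool (vertical axis, log scale above 1) of the 13 protein-coding and 2 rRNA genes against the percentage of 50-base words of the transcript that also occur in an annotated nuclear gene (horizontal axis); the points of mt-Nd1 and mt-Rnr1 coincide. The 5 genes with 98.0% or more of their words shared sit at 17.1 counts per kb or less, and the other 8 protein-coding genes at 698 or more. Copies outside annotated genes were not sought, so a percentage such as the 0% of mt-Atp8 may be too low.

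Of the 37 members, 28 had counts in at least 1 pool and 9 had none, namely mt-Nd4l and 8 tRNA genes. A count of 0 in a pool allows a level of up to 0.234 to 0.305 CPM (counts per 1000000 counts), which is 3 counts of that pool's library total. Elsewhere CPM values of single genes use totals adjusted with the trimmed mean of M values (TMM). None of the tRNA genes shared a 50-base word with an annotated nuclear gene, those at 0 included. Copies outside annotated genes, such as those between the pseudogenes on chromosome 1, were not sought, so this says nothing about them. All 8 tRNA genes on the minus strand of the reference had counts, against 6 of the 14 on the plus strand. Whether strand was used in counting was not stated, so the strand these reads came from is not known. After the filter on low counts 20 members remained for testing, which were both rRNA genes, 11 protein-coding genes and 7 tRNA genes. The 17 left out were mt-Nd3, mt-Nd4l and 15 tRNA genes.

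Library totals ran from 9834447 to 12807437 counts, and the mitochondrial genes took between 8.12% and 16.0% of them. The white-matter label fitted the marker genes: 5 oligodendrocyte genes (Mbp, Mag, Mog, Mobp and Cnp) summed to 40031 to 44130 CPM in young naïve pools and 26886 to 32588 in middle-aged naïve pools. In the lesions that sum was 10260 to 10431 CPM in young and 4556 to 7097 CPM in middle-aged pools, while 6 myeloid genes (Aif1, Csf1r, Cd68, Itgam, Ptprc and Tyrobp) summed to 71.8 to 102 CPM in young naïve, 110 to 147 CPM in middle-aged naïve and 1373 to 1950 CPM in injured pools. The 4 astrocyte genes (Aqp4, Slc1a2, Gfap and Gja1) summed to 9405 to 11736 CPM in naïve and 3496 to 5575 CPM in injured pools. The 4 neuronal genes (Snap25, Syt1, Rbfox3 and Slc17a6) summed to 681 to 1976 and 275 to 480 CPM, but did not all move alike. With injury 2 of them were called lower and 0 higher in young mice, where 26.3% of all genes were called lower and 28.3% higher. In middle-aged mice 3 were called lower and 1 higher, against 29.3% and 29.2% of all genes. Skeletal and cardiac muscle genes summed to 0.62 CPM or less in 11 pools and to 39.4 CPM in 1 young injured pool, and haemoglobin genes to at most 11.2 CPM. These markers moved with injury and some of them with age, and their part in the results was not tested. With age, 4 of the 6 myeloid genes were called higher and 2 of the 5 oligodendrocyte genes lower in naïve tissue, and 0 of 6 and 4 of 5 in the same directions in injured tissue. Of all tested genes, 2.02% were called higher and 1.78% lower in naïve tissue, and 0.24% and 0.908% in injured tissue. In such bulk tissue, fewer cells of a type and less mitochondrial RNA per cell cannot be told apart. One library stood apart: middle-aged naïve pool 2 had 34970 counts of a nuclear-encoded rRNA row (CT010467.1), against 4096 to 11619 in the other pools, and had both the highest mt-Rnr2 share and the lowest share of mitochondrial protein-coding counts among the naïve pools.

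The first question was how much of each library the mitochondrial genome supplied. The share was lower in the lesions and almost all of it was 1 RNA. Mitochondrial genes took 13.2%, 12.2% and 10.54% of the counts in the young naïve pools and 9.99%, 10.8% and 8.17% in the young injured pools, and these ranges overlapped. In middle-aged mice the shares were 15.2%, 16.0% and 14.8% in naïve pools and 11.2%, 8.12% and 13.1% in injured pools, with every injured pool below every naïve pool. Counting error on a share was at most 0.0223 percentage points (the reach of the 95% Clopper-Pearson interval to either side, which covers counting error only). Averaged over both ages, the log2 share was lower by a difference of -0.42 in injured pools (exact permutation test with labels exchanged within age, two-sided, p = 0.01, 12 pools). The smallest p this test can give is 0.005. Within 1 age, 3 pools against 3 cannot give less than p = 0.1, and the exact tests gave p = 0.2 in young and p = 0.1 in middle-aged mice.

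mt-Rnr2, the large rRNA of the mitochondrial ribosome, supplied 92.5% to 96.2% of the mitochondrial counts in each pool, so the total followed it. With mt-Rnr2 taken out of both the class and the library total, the remaining 36 genes held 0.976%, 0.825% and 0.707% of the young naïve and 0.826%, 0.670% and 0.603% of the young injured libraries. In middle-aged mice they held 0.994%, 0.714% and 0.949% of the naïve and 0.661%, 0.486% and 0.843% of the injured libraries. The difference on the log2 scale was then -0.35 and missed the threshold (exact permutation p = 0.06). Against nuclear counts alone it was -0.48 (exact permutation p = 0.01), and against TMM-adjusted totals -0.57 (exact permutation p = 0.005).

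**Figure D2:**
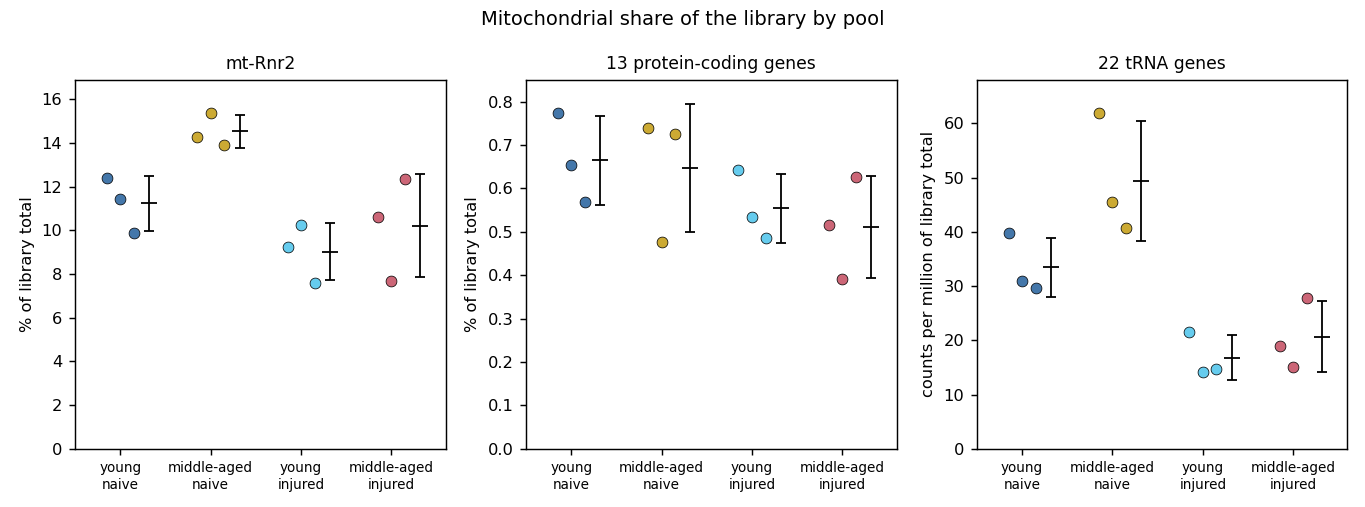
Share of the library total held by mt-Rnr2 (left, %), by the 13 protein-coding genes (middle, %) and by the 22 tRNA genes (right, CPM of the library total) in each of the 12 pools, with the group mean and SD (n = 3) as a bar. Middle-aged naïve pools lie highest for mt-Rnr2, at 13.9% or more, and both injured groups lie below their naïve groups for the tRNA genes.

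The 3 classes were then taken one by one, and differences between classes were not tested. The rRNA class held 11.3% ± 1.26 of the young naïve, 14.6% ± 0.760 of the middle-aged naïve, 9.11% ± 1.33 of the young injured and 10.3% ± 2.40 of the middle-aged injured libraries (SD, n = 3), a log2 difference with injury of -0.43 (exact permutation p = 0.01). Without mt-Rnr2 only mt-Rnr1 remained in this class, and its difference was -0.22 (exact permutation p = 0.35). The protein-coding genes held 0.665% ± 0.103, 0.647% ± 0.148, 0.554% ± 0.0799 and 0.511% ± 0.117 in the same order, a log2 difference of -0.30 that missed the threshold (exact permutation p = 0.09) but passed it against TMM-adjusted totals, at -0.45 (exact permutation p = 0.015), and without middle-aged naïve pool 2, at -0.40 (exact permutation p = 0.035). The tRNA genes held 33.5 ± 5.50, 49.3 ± 11.1, 16.8 ± 4.10 and 20.7 ± 6.54 CPM of the library total, and their log2 difference with injury was -1.14 (exact permutation p = 0.005). The tRNA class rested on 172 to 663 counts a pool. In its lowest pool, at 14.2 CPM of the library total, the 95% Clopper-Pearson interval ran from 12.1 to 16.4. The tRNA difference stayed past the threshold in all 17 alternative settings, between -1.30 and -1.04.

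Genes were then tested one by one with edgeR's quasi-likelihood test across 15866 genes. In young mice 0 of the 20 tested members rose with injury, where 28.3% of all tested genes rose, and 5 (25%) fell, where 26.3% of all tested genes fell. In middle-aged mice 0 rose, against 29.2% of all genes, and 8 (40%) fell, against 29.3% of all genes. The share that fell was thus close to that of all genes in young mice. In middle-aged mice it was higher with all pools in, but 5 to 11 members fell when single pools were left out. Members also share precursors and are not independent, so no difference from all genes or between ages is concluded. The number that rose was 0 at both ages. The 5 that fell in young mice were mt-Rnr2, mt-Co1, mt-Ti, mt-Tq and mt-Ty. The same 5 fell in middle-aged mice together with mt-Nd1, mt-Ta and mt-Tc. DESeq2 also called 5 and 8 members lower.

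**Figure D3:**
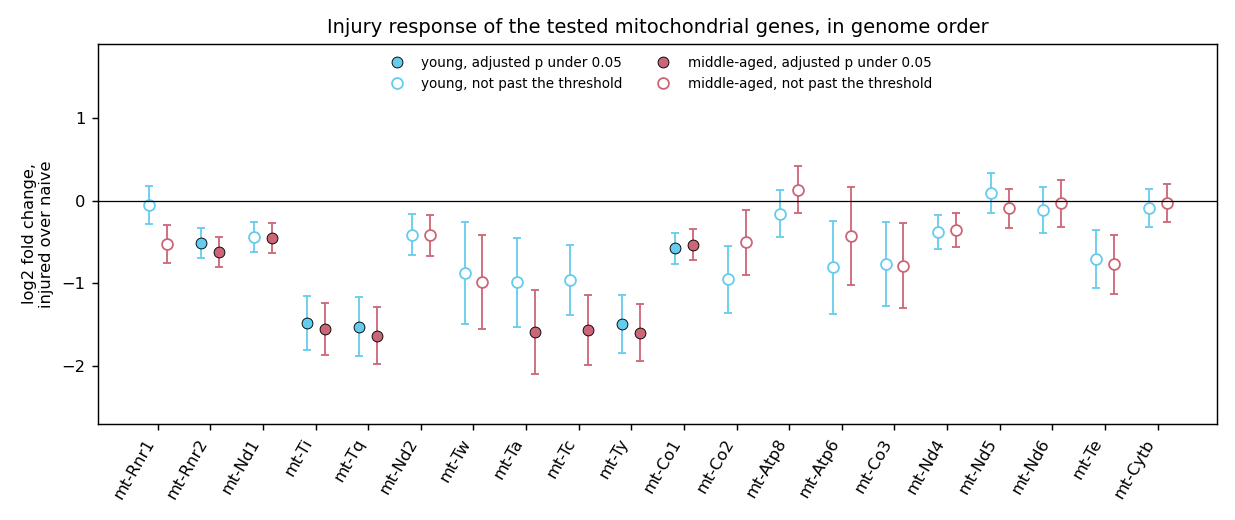
Log2 fold change of injured over naïve pools for the 20 tested members, in the order of the genome (horizontal axis), with SE bars, for young (blue) and middle-aged (red) mice. Filled points passed an adjusted p of 0.05 (edgeR), and the lowest values belong to the tRNA genes mt-Ti, mt-Tq, mt-Ta, mt-Tc and mt-Ty.

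Among the rRNA genes, mt-Rnr2 held 12.4%, 11.4% and 9.90% of the young naïve libraries and 9.24%, 10.2% and 7.61% of the young injured libraries. It held 14.3%, 15.4% and 13.9% of the middle-aged naïve and 10.6%, 7.67% and 12.4% of the middle-aged injured libraries. The injured pools lay below the naïve pools of their age with no overlap in middle-aged mice, and in young mice 1 injured pool lay above 1 naïve pool on this scale. On the TMM scale it fell by 0.51 log2 units in young mice (SE 0.18, adjusted p = 0.0236) and by 0.62 in middle-aged mice (SE 0.18, adjusted p = 0.0075). The young call did not hold when library totals replaced TMM (log2 fold change -0.32, adjusted p = 0.13), nor without young naïve pool 1 or 2 (adjusted p = 0.0772 and 0.0631) or young injured pool 1 or 3 (adjusted p = 0.0558 and 0.0992).

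mt-Rnr1, the small rRNA of the same ribosome, is transcribed from the same precursor, yet had far fewer counts. Per kb of gene, young naïve pools held 75739 ± 8758 CPM of mt-Rnr2 and 806 ± 75.9 CPM of mt-Rnr1 (SD, n = 3). The ratio of their counts was 152 to 159 in young naïve pools, 125 to 159 in middle-aged naïve pools, 88.0 to 155 in young injured pools and 113 to 144 in middle-aged injured pools. Its log2 difference with injury was -0.26 and did not pass the threshold (exact permutation p = 0.125). The method used to select or deplete rRNA was not stated in the sources used here, so the size of this ratio cannot be read as a ratio of transcripts in the tissue. mt-Rnr1 stood at 830, 791 and 689 CPM in young naïve and 967, 624 and 642 CPM in young injured pools, which overlapped (log2 fold change -0.05, SE 0.23, adjusted p = 0.875). In middle-aged mice it stood at 1096, 1336 and 898 CPM in naïve and 710, 534 and 1066 CPM in injured pools (log2 fold change -0.53, SE 0.23, adjusted p = 0.0636). That difference passed without middle-aged naïve pool 3 (-0.66, adjusted p = 0.0389), middle-aged injured pool 3 (-0.83, adjusted p = 0.0055) or young injured pool 1 (-0.53, adjusted p = 0.0465), and single pools moved it between -0.83 and -0.33.

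The 13 protein-coding genes encode subunits of complex I (mt-Nd1 to mt-Nd6 and mt-Nd4l), complex III (mt-Cytb), complex IV (mt-Co1 to mt-Co3) and the ATP synthase (mt-Atp6 and mt-Atp8). By level per length in young naïve pools, mt-Co1 was highest at 3084 ± 445 CPM per kb. mt-Nd1 followed at 963 ± 165, mt-Cytb at 586 ± 130, mt-Atp8 at 273 ± 59.1, mt-Nd4 at 188 ± 36.6, mt-Nd5 at 134 ± 24.0, mt-Nd2 at 129 ± 25.3 and mt-Nd6 at 69.7 ± 16.5 CPM per kb (SD, n = 3). mt-Atp8 and mt-Nd4, mt-Nd4 and mt-Nd5, and mt-Nd5 and mt-Nd2 differed by less than their summed SDs, so the order within these pairs is not separated. mt-Co1 and mt-Nd4 shared 51.1% and 62.2% of their 50-base words with nuclear genes. Their levels per kb may be understated, so the place of mt-Nd4 is uncertain for this reason too. mt-Nd6 is the one protein-coding gene on the minus strand of the reference. Since the use of strand in counting was not stated, its counts and shares may include reads from the opposite strand.

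mt-Co1, the catalytic core of cytochrome c oxidase, was the protein-coding gene that fell at both ages. It stood at 5516, 4612 and 4166 CPM in young naïve and 3540, 3252 and 2788 CPM in young injured pools, with no overlap (log2 fold change -0.58, SE 0.19, adjusted p = 0.0170). In middle-aged mice it stood at 5268, 3384 and 5141 CPM in naïve and 3246, 2510 and 3787 CPM in injured pools. Here the groups overlapped through naïve pool 2, the library that stood apart (log2 fold change -0.53, SE 0.19, adjusted p = 0.0243). Under library totals the adjusted p was 0.111 in young and 0.0707 in middle-aged mice, so both calls depended on the scaling. The young call was also lost without young naïve pool 1 or young injured pool 3 (adjusted p = 0.0769 and 0.0714), and the middle-aged call without middle-aged naïve pool 1 or 3 or middle-aged injured pool 1 or 2 (adjusted p = 0.0918, 0.0884, 0.051 and 0.108).

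mt-Nd1, a membrane subunit of complex I, stood at 1040, 983 and 742 CPM in young naïve and 809, 619 and 614 CPM in young injured pools (log2 fold change -0.44, SE 0.19, adjusted p = 0.0593), and it passed there without young naïve pool 3, young injured pool 1 or middle-aged injured pool 2 or 3 (adjusted p of 0.0239 to 0.0345). In middle-aged mice it stood at 1036, 923 and 979 CPM in naïve and 688, 533 and 926 CPM in injured pools, where the highest injured pool lay just above the lowest naïve pool. That difference passed the threshold by little (log2 fold change -0.45, SE 0.19, adjusted p = 0.0484). It did not pass under library totals (adjusted p = 0.126), nor without middle-aged naïve pool 1 or 3 or middle-aged injured pool 1 or 2 (adjusted p = 0.111, 0.0884, 0.116 and 0.2), nor without young naïve pool 1 or 2 or young injured pool 2 or 3.

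For 4 further genes the estimates were close to 0 in both ages. mt-Cytb was at 816, 677 and 518 CPM in young naïve and 769, 565 and 558 CPM in young injured pools, and at 575, 413 and 561 CPM and 492, 348 and 678 CPM in the middle-aged groups. Its log2 fold change was -0.09 (SE 0.23) in young and -0.03 (SE 0.23) in middle-aged mice, and under library totals it was 0.11 and 0.07. mt-Nd5 gave 0.10 (SE 0.24) and -0.09 (SE 0.24), mt-Nd6 gave -0.11 (SE 0.28) and -0.03 (SE 0.29), and mt-Atp8 gave -0.15 (SE 0.28) and 0.13 (SE 0.28), none of them past the threshold. mt-Nd2 (log2 fold change -0.41 and -0.42) and mt-Nd4 (-0.38 and -0.35) lay between these genes and mt-Co1 and did not pass the threshold either. In middle-aged mice mt-Nd2 passed without naïve pool 2 (-0.64, adjusted p = 0.0251) or injured pool 3 (-0.66, adjusted p = 0.0487), and mt-Nd4 without naïve pool 2 (-0.49, adjusted p = 0.0469). mt-Co2, mt-Atp6 and mt-Co3, which had 3 to 19 counts a pool, gave -0.95 and -0.50, -0.81 and -0.42, and -0.77 and -0.79, and none passed.

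Since the protein-coding genes shared a total within each pool, their composition was compared free of library scaling, as the share of each gene in the protein-coding counts. The 12 genes with counts and 3 ratios were tested for injury and for age in one family of 30 exact permutation tests with Benjamini-Hochberg adjustment, leaving out mt-Nd4l, and shares within a pool are not independent because they add to a fixed total. mt-Cytb took 9.90%, 9.65% and 8.62% of the protein-coding counts in young naïve pools and 12.997%, 11.2% and 12.4% in young injured pools. In middle-aged mice it took 7.56%, 7.98% and 7.56% in naïve and 9.89%, 9.18% and 11.1% in injured pools. All injured pools lay above the naïve pools of their age, and the log2 difference was 0.38 (exact permutation p = 0.005, adjusted p = 0.015).

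mt-Nd5 moved the same way, from 3.47%, 3.54% and 3.30% to 5.53%, 4.56% and 5.03% in young and from 3.28%, 3.12% and 3.87% to 4.33%, 4.13% and 4.66% in middle-aged mice (log2 difference 0.45, exact permutation p = 0.005, adjusted p = 0.015). mt-Atp8 and mt-Nd6 took under 1.2% each and were also higher with injury, by log2 differences of 0.43 and 0.43 (exact permutation p = 0.005 and adjusted p = 0.015 for each). The ratio of mt-Nd6 to the other protein-coding genes, which repeats its share almost exactly, gave 0.43 as well. Against these, mt-Co1 took 67.0%, 65.7% and 69.3% in young naïve and 59.8%, 64.7% and 61.8% in young injured pools, and 69.3%, 65.3% and 69.2% and 65.2%, 66.2% and 62.0% in the middle-aged groups. Its share was lower with injury (log2 difference -0.10, exact permutation p = 0.01, adjusted p = 0.0273), although the middle-aged groups overlapped, and the call was lost without any 1 young naïve pool, middle-aged naïve pool 1 or 3 or middle-aged injured pool 1 or 3 (adjusted p of 0.0577 to 0.0818). The shares of mt-Nd1 and mt-Nd2 gave log2 differences of -0.01 and 0.04, and mt-Nd4 gave 0.08 (exact permutation p = 0.02, adjusted p = 0.05, not under the threshold). The ratio of rRNA to protein-coding counts was 16.1 to 17.6 in young naïve and 14.6 to 19.3 in young injured pools. In middle-aged mice it was 19.3 to 32.5 in naïve pools, with the highest value in pool 2, and 19.7 to 20.7 in injured pools. Over both ages its log2 difference with injury was -0.13 and did not pass (exact permutation p = 0.465, adjusted p = 0.581).

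**Figure D4:**
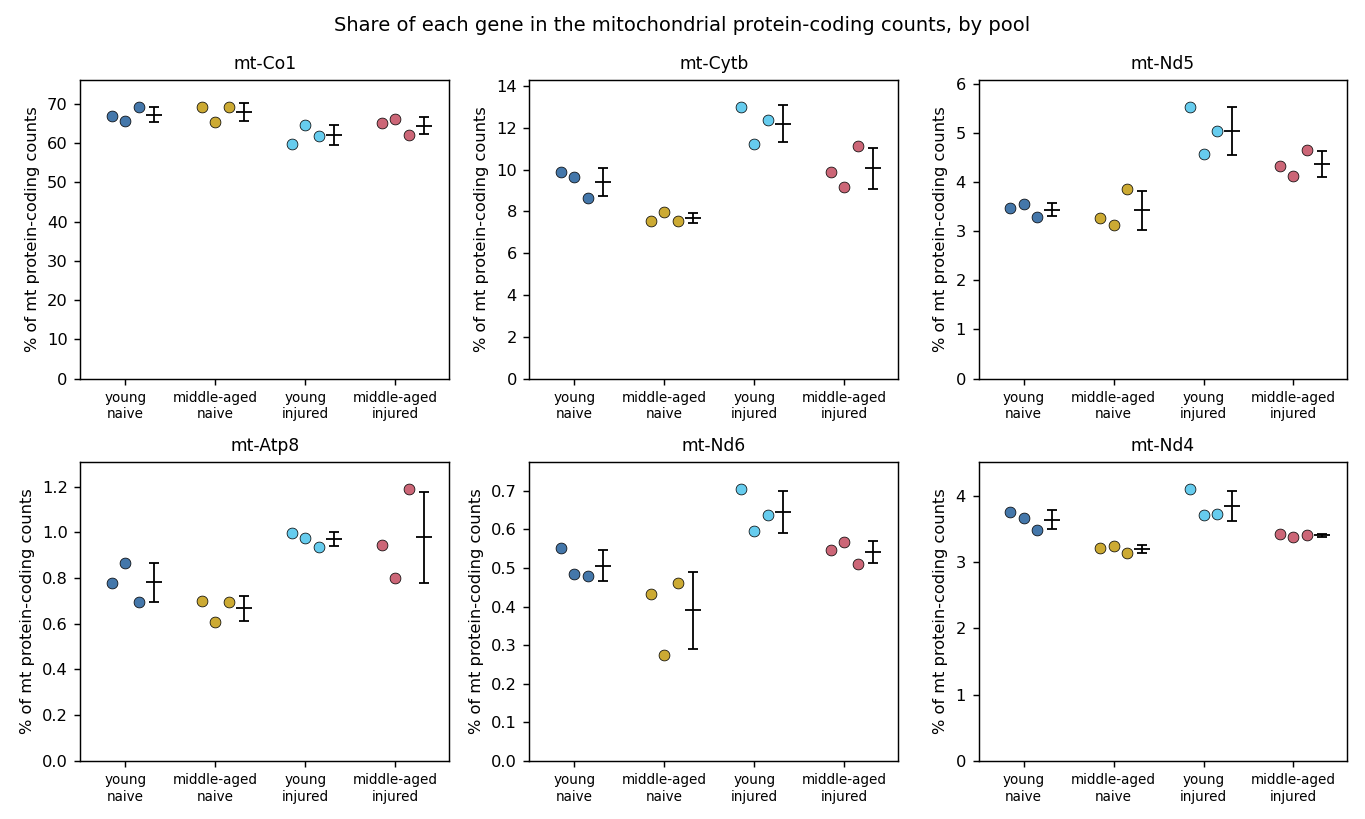
Share of 6 genes in the mitochondrial protein-coding counts (vertical axes, %) in each of the 12 pools, with the group mean and SD (n = 3) as a bar. mt-Cytb, mt-Nd5, mt-Atp8 and mt-Nd6 take a larger share in injured pools than in naïve pools of the same age and mt-Co1 a smaller one, with an overlap in middle-aged mice, while mt-Nd4 is lower in middle-aged pools.

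The lowest fold changes among the tested members belonged to tRNA genes. The 4 that fell most clearly are shown with their sequences, because their length and their position bear on what a count in them can be. They are the tRNAs for isoleucine (mt-Ti, chrM:3706-3774, plus strand), glutamine (mt-Tq, chrM:3772-3842, minus strand), cysteine (mt-Tc, chrM:5192-5257, minus strand) and tyrosine (mt-Ty, chrM:5260-5326, minus strand), and capitals mark reference bases that a neighbouring gene also covers.
mt-Ti: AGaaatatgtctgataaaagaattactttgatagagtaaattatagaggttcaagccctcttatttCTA
mt-Tq: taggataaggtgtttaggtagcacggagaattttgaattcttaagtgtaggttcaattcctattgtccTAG
mt-Tc: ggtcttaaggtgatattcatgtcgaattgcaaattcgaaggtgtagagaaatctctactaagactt
mt-Ty: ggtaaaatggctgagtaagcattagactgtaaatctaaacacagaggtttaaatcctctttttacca

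mt-Ti shared 2 bases with mt-Nd1 on the same strand and 3 bases with mt-Tq on the opposite strand, and mt-Tc and mt-Ty stood side by side on the minus strand. The genes are 66 to 71 bases long, so a sequenced fragment that lies inside 1 gene and a fragment of an uncut precursor that runs across it cannot be told apart in these counts. Whether strand was used in counting was not stated in the sources used here, and without it reads of mt-Ti and mt-Tq over their shared bases cannot be separated either. Without it, reads from the precursor of the opposite strand would also count in a gene over its whole length. Counts of mt-Tq, mt-Tc, mt-Ty and the other minus-strand members may therefore not come from the minus strand alone. At a word length of 31 bases mt-Ty shared 4 of its 37 words (10.8%) with Cep295, a nuclear gene with 77 to 258 counts a pool, and the other tRNA genes shared none.

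mt-Ti stood at 8.02, 6.98 and 8.82 CPM in young naïve and 3.89, 2.25 and 2.33 CPM in young injured pools. In middle-aged mice it stood at 14.97, 16.05 and 8.24 CPM in naïve and 4.07, 3.19 and 6.04 CPM in injured pools. There was no overlap at either age, and the log2 fold changes were -1.48 (SE 0.33, adjusted p = 0.0014) and -1.56 (SE 0.31, adjusted p = 0.0007). mt-Tq stood at 10.7, 8.88 and 8.71 CPM against 4.26, 2.71 and 2.86 CPM in young mice, and at 16.9, 18.3 and 9.52 CPM against 4.65, 2.48 and 7.25 CPM in middle-aged mice. The groups again did not overlap, and mt-Tq fell by 1.52 (SE 0.36, adjusted p = 0.0022) and 1.63 log2 units (SE 0.35, adjusted p = 0.00099).

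mt-Ty stood at 5.10, 3.72 and 3.98 CPM in young naïve and 1.84, 1.32 and 1.36 CPM in young injured pools, and at 6.05, 3.57 and 5.76 CPM and 2.32, 1.12 and 1.64 CPM in the middle-aged groups. Its log2 fold changes were -1.50 (SE 0.35, adjusted p = 0.0023) and -1.60 (SE 0.35, adjusted p = 0.0012). The calls of mt-Ti, mt-Tq and mt-Ty held in all 23 alternative settings at both ages, with adjusted p of at most 0.0135. For mt-Tc the values were 4.74, 2.81 and 1.94 CPM against 1.98, 1.71 and 1.20 CPM in young mice, which overlapped (log2 fold change -0.96, SE 0.43, adjusted p = 0.0712), and the difference passed without young naïve pool 3 (-1.20, adjusted p = 0.0336) or middle-aged naïve pool 2 (-0.96, adjusted p = 0.0400). In middle-aged mice they were 7.20, 2.94 and 4.96 CPM against 1.66, 1.28 and 2.16 CPM, with no overlap (log2 fold change -1.57, SE 0.42, adjusted p = 0.0054).

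mt-Ta, the tRNA for alanine, passed in middle-aged mice, from 1.82, 1.05 and 1.44 CPM to 0.25, 0.56 and 0.60 CPM (log2 fold change -1.59, SE 0.51, adjusted p = 0.0145), and had 103 counts over all pools. Its call was lost without middle-aged naïve pool 1 (adjusted p = 0.0513) or middle-aged injured pool 1 (adjusted p = 0.0775). In young mice mt-Ta gave -0.99 (SE 0.54, adjusted p = 0.137). mt-Te, the tRNA for glutamate and the third most counted with 775 counts, gave -0.71 (SE 0.35, adjusted p = 0.104) and -0.77 (SE 0.36, adjusted p = 0.0761). In middle-aged mice mt-Te passed without naïve pool 2 (-1.02, adjusted p = 0.0170) or injured pool 3 (-1.04, adjusted p = 0.0419). mt-Tw, for tryptophan, gave -0.88 (SE 0.62) and -0.99 (SE 0.57) and passed at neither age. The tRNA genes that were not tested had from 0 to 73 counts over all 12 pools.

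Set against the protein-coding genes rather than the library, the tRNA counts were also lower in the lesions. Per 1000 protein-coding counts they came to 5.14, 4.73 and 5.22 in young naïve pools and 3.35, 2.65 and 3.02 in young injured pools. In middle-aged mice they came to 8.37, 9.54 and 5.61 in naïve and 3.69, 3.85 and 4.45 in injured pools. The groups did not overlap at either age. This ratio was chosen after its values were seen and was not tested.

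The next question was whether age changed mitochondrial transcripts. In naïve tissue 0 of the 20 tested members were called in either direction, against 2.02% of all tested genes called higher and 1.78% called lower in middle-aged mice. With the unadjusted p under 0.05 there were 2, mt-Rnr1 (log2 fold change 0.53, SE 0.23, adjusted p = 0.241) and mt-Ti (0.72, SE 0.31, adjusted p = 0.224), and DESeq2 called 0. In injured tissue 0 were called by edgeR or DESeq2, against 0.24% of all genes higher and 0.908% lower, and 0 had an unadjusted p under 0.05. mt-Rnr2 gave log2 fold changes of 0.35 (SE 0.18) in naïve and 0.24 (SE 0.18) in injured tissue, and mt-Cytb gave -0.38 (SE 0.23) and -0.32 (SE 0.23).

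The shares of the library did not pass the threshold for age with all pools in, and 1 pool decided this for 3 of the 4. All mitochondrial genes together were higher in middle-aged pools by a log2 difference of 0.25 (exact permutation test with labels exchanged within injury state, p = 0.09), the rRNA class by 0.27 (exact permutation p = 0.065) and the tRNA class by 0.41 (exact permutation p = 0.06). Without middle-aged injured pool 2 these differences were 0.35, 0.36 and 0.52 (exact permutation p = 0.01, 0.01 and 0.035), and without young injured pool 1 that of the tRNA class was 0.51 (exact permutation p = 0.02). Computed from mean shares, all mitochondrial genes and the rRNA class also passed (exact permutation p = 0.045 and 0.04). The protein-coding class gave -0.09 (exact permutation p = 0.55). With mt-Rnr2 left out, the difference of all mitochondrial genes was -0.0096 (exact permutation p = 0.935).

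Within the protein-coding counts, on the other hand, age moved 3 genes. The share of mt-Cytb was lower in middle-aged pools by a log2 difference of -0.28, that of mt-Nd6 by -0.33 and that of mt-Nd4 by -0.18 (exact permutation p = 0.005 and adjusted p = 0.015 for each). mt-Nd4 took 3.77%, 3.68% and 3.48% in young naïve and 3.22%, 3.25% and 3.14% in middle-aged naïve pools, with no overlap. In injured pools it took 4.11%, 3.71% and 3.73% in young and 3.42%, 3.38% and 3.41% in middle-aged mice. The ratio of rRNA to protein-coding counts was higher with age, by a log2 difference of 0.36 (exact permutation p = 0.005, adjusted p = 0.015). It was 19.5, 32.5 and 19.3 in middle-aged naïve pools, where the highest value came from pool 2, and 20.7, 19.7 and 19.9 in middle-aged injured pools, against 14.6 to 19.3 in all young pools. The age calls of mt-Nd6 and of this ratio were lost without any 1 young naïve pool (adjusted p of 0.06 to 0.0818 and of 0.0875 to 0.1125), and that of the ratio also without middle-aged injured pool 1 or 3 (0.075 and 0.0577). The injury and age comparisons of these shares used the same 12 pools.

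Whether the injury response itself differed with age was tested as an interaction. It was called for 0 of the 20 members by edgeR or DESeq2, against 0.0567% of all genes called in the higher and 0.0819% in the lower direction, and 0 had an unadjusted p under 0.05. The interaction estimates were -0.11 (SE 0.25) for mt-Rnr2, -0.07 (SE 0.46) for mt-Ti, -0.11 (SE 0.50) for mt-Tq and 0.05 (SE 0.26) for mt-Co1. Their standard errors leave room for age differences of about the size of the injury effects of mt-Rnr2 and mt-Co1 themselves, so equal responses were not shown, and the sign of each except mt-Ta and mt-Tc changed with single pools left out. mt-Nd1, mt-Ta and mt-Tc, which passed in middle-aged mice alone, gave -0.02 (SE 0.26), -0.61 (SE 0.75) and -0.61 (SE 0.60).

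The nuclear genes that serve the mitochondrial genome were examined in 6 lists with 164 genes, of which 162 were tested. In young mice 13 rose and 25 fell with injury (8.02% and 15.4%), both below the 28.3% and 26.3% of all genes. In middle-aged mice 23 rose and 25 fell (14.2% and 15.4%), against 29.2% and 29.3%. The median log2 fold change of the 162 genes was -0.05 at both ages, beside 0.00054 and -0.03 over all tested genes. With library totals in place of TMM the median of all genes in young mice became 0.20 and that of these lists 0.15. On that scale 29 of the 162 list genes were called higher and 12 lower, where 33.9% of all genes were called higher and 20.4% lower.

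Transcription of the mitochondrial genome needs the polymerase Polrmt, the packaging and initiation factor Tfam, the initiation factor Tfb2m and the elongation factor Tefm. Tfam fell in young mice (log2 fold change -0.47, SE 0.17, adjusted p = 0.0264) but gave -0.08 (SE 0.17, adjusted p = 0.714) in middle-aged mice, a difference between ages that did not pass as an interaction. Polrmt gave -0.75 (SE 0.33, adjusted p = 0.0662) and -0.27 (SE 0.34, adjusted p = 0.508). Tfb2m (0.31 and 0.37) and Tefm (0.04 and 0.23) passed at neither age. Among the 10 genes of this list, 0 rose at either age, against 28.3% of all genes in young and 29.2% in middle-aged mice. In the same order 2 (20%) and 3 (30%) fell, against 26.3% and 29.3% of all genes. The lowest called values were those of Mterf2, a member of the mitochondrial transcription termination factor family, at -0.98 (SE 0.26) and -1.07 (SE 0.27). In middle-aged mice Tfb1m, which methylates the small mitochondrial rRNA, followed at -0.78 (SE 0.26, adjusted p = 0.0175). The call of Tfam was lost under library totals (adjusted p = 0.184) and without young naïve pool 1 or 2 or young injured pool 2 or 3 (0.0572 to 0.127), and that of Tfb1m without middle-aged naïve or injured pool 2 (0.0974 and 0.0641). Polrmt in young mice passed without young naïve pool 1 (adjusted p = 0.039) or middle-aged naïve pool 2 (0.0418).

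Of the 17 tested genes for replication and maintenance of mitochondrial DNA, 5 rose and 4 fell in young mice (29.4% and 23.5%, against 28.3% and 26.3% of all genes). In middle-aged mice 3 rose and 5 fell (17.6% and 29.4%, against 29.2% and 29.3% of all genes). Polg, the catalytic subunit of the mitochondrial DNA polymerase, rose in young mice (log2 fold change 0.59, SE 0.16, adjusted p = 0.0062) and gave 0.37 (SE 0.16, adjusted p = 0.0617) in middle-aged mice. Twnk, the helicase, gave -0.12 (SE 0.24) and -0.39 (SE 0.24) and did not pass. In middle-aged mice Polg passed without naïve pool 3 (adjusted p = 0.0183) and Twnk without naïve pool 1 (0.0267), with all pools of the other groups kept. The highest values were those of Dna2, a nuclease-helicase that also serves nuclear DNA replication, with 4 to 19 counts in young naïve and 198 to 227 in young injured pools (log2 fold change 3.97, SE 0.56), and of Primpol, a primase-polymerase, at 1.48 (SE 0.20) and 1.72 (SE 0.20). In middle-aged mice Dna2 had 2 to 34 counts in naïve and 184 to 231 in injured pools. The lowest were Slc25a33, a mitochondrial pyrimidine nucleotide carrier, at -1.72 (SE 0.23) and -2.002 (SE 0.23), and Rrm2b, a ribonucleotide reductase subunit, at -0.88 (SE 0.18) and -0.87 (SE 0.18).

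Of the 32 genes for processing and turnover of mitochondrial RNA, 2 rose and 9 fell in young mice (6.25% and 28.1%, against 28.3% and 26.3% of all genes). In middle-aged mice 6 rose and 6 fell (18.8% each, against 29.2% and 29.3% of all genes). The enzymes that free tRNAs from the precursor gave mixed values. Elac2, which cuts the tRNA 3′ end, gave -0.26 (SE 0.16) and -0.14 (SE 0.16) and did not pass. Trmt10c, a subunit of the RNase P that cuts the 5′ end, gave 0.34 (SE 0.19, adjusted p = 0.138) in young and rose by 0.65 (SE 0.19, adjusted p = 0.0079) in middle-aged mice. The nuclease subunit of that RNase P (Prorp, listed as 1110008L16Rik) rose in middle-aged mice by 0.74 (SE 0.29, adjusted p = 0.0397). Slirp, which with Lrpprc keeps mitochondrial mRNAs stable, fell by 0.32 (SE 0.11, adjusted p = 0.0289) and 0.41 (SE 0.11, adjusted p = 0.0066), and Lrpprc gave -0.04 (SE 0.12) in young and -0.29 (SE 0.12, adjusted p = 0.0498) in middle-aged mice. Called values at the ends of this list were those of Nsun3, a tRNA methyltransferase (0.47 and 1.24), of Pnpt1, a polynucleotide phosphorylase (0.58 in young mice), of the rRNA methyltransferase Mrm2 (-0.74 in young mice), of Hsd17b10, a further RNase P subunit (-0.56 in young mice), and of Fastk and Fastkd2, RNA-binding proteins of 1 family (-0.70 and -0.67 in middle-aged mice). Several of these calls rested on single pools. Slirp in young mice was lost without young naïve pool 2 or 3 or young injured pool 1 or 3 (adjusted p of 0.0762 to 0.113), as was Hsd17b10 (0.0777 to 0.113), and both were lost under library totals (0.358 and 0.124). Pnpt1 was lost without young naïve pool 1 or young injured pool 2 (0.102 and 0.0944). Nsun3 in young mice, Lrpprc and Prorp in middle-aged mice were each lost on leaving out most single pools, with adjusted p of up to 0.149, 0.144 and 0.113.

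The list for the mitochondrial ribosome, a particle that holds mt-Rnr1 and mt-Rnr2, had medians near 0. Its genes were picked by symbols starting with Mrpl or Mrps, and a place in the ribosome was not checked for each, Mrps36 included. Of 77 tested genes 1 rose and 7 fell in young mice (1.30% and 9.09%, against 28.3% and 26.3% of all genes). In middle-aged mice 8 rose and 7 fell (10.4% and 9.09%, against 29.2% and 29.3% of all genes). The median log2 fold changes were -0.05 and 0.0011. Mrpl35 (-1.27, SE 0.24) and Mrps34 (-1.22, SE 0.40) were the lowest in young mice and Mrps34 (-1.58, SE 0.40) and Mrps36 (-1.24, SE 0.22) in middle-aged mice. Mrps6 rose in young mice (0.62, SE 0.19), and Mrps2 (0.88, SE 0.19) and Mrpl32 (0.87, SE 0.28) were the highest in middle-aged mice. Without young naïve pool 1 Mrps6 was at an adjusted p of 0.0501, without middle-aged naïve pool 1 Mrpl32 was at 0.0502, and Mrps34 in young mice was lost without young naïve pool 3 or young injured pool 1 or 3 (0.0546 to 0.0897). Of the 17 mitochondrial aminoacyl-tRNA synthetases, which load the tRNAs, 0 rose and 2 fell (11.8%) in young mice, against 28.3% and 26.3% of all genes. The 2 were Lars2 at -1.34 (SE 0.33) and Mars2 at -0.51 (SE 0.17). In middle-aged mice 1 rose (5.88%), Cars2 (0.69, SE 0.28), and 3 fell (17.6%), against 29.2% and 29.3% of all genes. Of those that fell, Lars2 (-1.63, SE 0.33) and Vars2 (-0.66, SE 0.23) were the lowest. The calls of Mars2, Cars2 and Vars2 were lost without young naïve pool 3 (0.099), middle-aged injured pool 2 (0.156) and middle-aged naïve pool 2 (0.13), among other pools, while that of Lars2 held in every alternative. Of 9 nuclear regulators 5 rose and 1 fell at each age (55.6% and 11.1%). Of all genes 28.3% rose and 26.3% fell in young mice, and 29.2% and 29.3% in middle-aged mice. The regulator that fell was Ppargc1a, the coactivator PGC-1alpha that drives mitochondrial biogenesis. It went from 314 to 545 counts in young naïve to 151 to 226 in young injured pools (log2 fold change -1.58, SE 0.23, adjusted p = 3.94e-05). In middle-aged mice it fell by 1.42 log2 units (SE 0.23, adjusted p = 0.000107). Pprc1, a related coactivator, gave 1.27 (SE 0.25) and 1.02 (SE 0.25), and Tfe3, a transcription factor of lysosomal and mitochondrial genes, 1.16 (SE 0.14) and 1.04 (SE 0.14). Esrra, a nuclear receptor partner of PGC-1alpha, gave -0.26 and -0.23 and did not pass.

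The nuclear partners of the mitochondrial protein-coding genes, the other subunits of the respiratory chain and ATP synthase, formed a seventh list, and its difference from the other 6 was not tested. Of 81 tested genes 0 rose and 38 fell in young mice (46.9%, against 26.3% of all genes), and 2 rose and 47 fell in middle-aged mice (58.0%, against 29.3%). Their median log2 fold changes were -0.52 and -0.51. Uqcr11 of complex III (-1.16, SE 0.23) and Cox4i1 of complex IV (-1.16, SE 0.24) were the lowest called values in young mice. In middle-aged mice the lowest were Ndufb10 of complex I (-1.70, SE 0.29) and Cox7a1, the muscle form of a complex IV subunit, whose 388 counts in middle-aged naïve pool 1 stood against 2 to 12 in the other middle-aged pools, so that 1 pool decides its value (adjusted p = 0.0698 without it). The 2 that rose were Uqcr10 (1.38, SE 0.45) and Cox6a2, another muscle form, with 0 to 1 counts in naïve and 3 to 13 in injured pools. Uqcr10 was lost without middle-aged naïve or injured pool 3 (adjusted p = 0.0655 and 0.0868). Under library totals 22 of the 81 genes were called lower and 1 higher in young mice, where 20.4% of all genes were called lower and 33.9% higher. Their median was then -0.32 beside 0.20 over all genes.

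**Figure D5:**
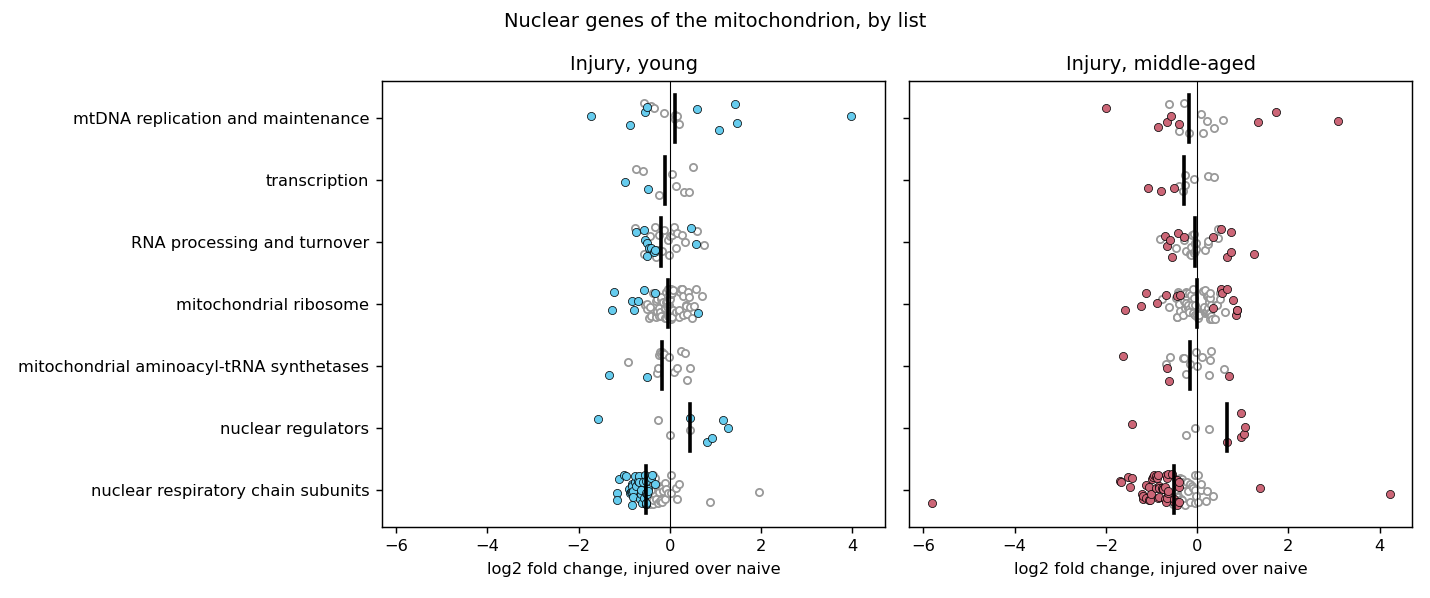
Log2 fold change of injured over naïve pools (horizontal axes, the same scale in both panels) for each tested gene of 7 nuclear lists (rows) in young (left) and middle-aged (right) mice, where filled points passed an adjusted p of 0.05 (edgeR) and the black bar is the list's median. Subunits of the respiratory chain have medians of -0.52 and -0.51, while the lists for mitochondrial gene expression have medians nearer 0, apart from the 9 regulators.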

How the data were processed

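Per the labels and the study's methods, RNA from laser-captured white matter was amplified with REPLI-g, sequenced on a NextSeq500, checked with FastQC 0.11.4, mapped to GRCm38 with TopHat2 2.0.10 and Bowtie 1.1.2, and counted with featureCounts. Strand setting, handling of multiply mapped reads, read length and rRNA depletion were not given in the sources used here. The authors deposited 1 table of raw counts per gene for 12 pools, 3 in each of 4 groups. Its values are whole numbers that were not normalized, and no list of genes removed is given. Ages and hours after injury came from the methods and the pool size from the series' design text. The titles call the libraries mRNA, while the molecule is given as total RNA. Intervals (95% Clopper-Pearson) and the floor of 3 counts cover counting error only.

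Here edgeR 4.0.16 in R 4.3.3 (TMM, filterByExpr, quasi-likelihood test, 1 coefficient per group, Benjamini-Hochberg over 15866 genes, threshold 0.05) was the main fit, with DESeq2 1.42.0, the method of the study, as an alternative. The fit was tested on simulated data first. Levels are CPM of TMM-adjusted totals. Class shares and composition (0.5 added to counts) were compared by two-sided exact permutation tests, with labels exchanged within age or within injury state (400 arrangements, smallest p 0.005), and the 30 composition tests were adjusted together. Sequences, gene positions and shared words of 31, 50 and 75 bases came from GENCODE M21 transcripts. No genome sequence was used, so copies outside annotated genes were not sought. No label says that the pools of a group were independent experiments, so p-values measure the spread between these pools.

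The text names every rRNA and protein-coding gene, the tRNA genes that passed the filter, 12 nuclear genes chosen by role and, per nuclear list and injury comparison, up to 2 called genes of highest and 2 of lowest fold change. The members and lists were chosen with earlier results of these data known. Alternatives were other scalings, totals without mt-Rnr2, other filters, DESeq2, a replicate block and leaving out each pool. One gene of the oligodendrocyte marker list is not reported here and was left out of its sum.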

Additional observations from a re-analysis of the deposited data

How the results depend on the processing

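On library totals, totals without mt-Rnr2 and nuclear totals, 3 members were called lower in young mice in place of 5. The nuclear lists for mitochondrial gene expression then had 29, 28 and 28 genes called higher and 12, 12 and 13 lower in young mice. Of all genes 33.9%, 32.8% and 32.7% were called higher and 20.4%, 21.5% and 21.5% lower on these totals. Without a filter 1 member, mt-Rnr1, was called higher with age in naïve tissue, where 2.64% of all genes were called higher. Leaving out 1 pool gave 3 to 7 members lower in young mice (3 without young naïve pool 1 or young injured pool 3) and 5 to 11 in middle-aged mice (5 without naïve or injured pool 1, 11 without naïve pool 2 or injured pool 3), with 5 to 7 calls of composition for injury and 2 to 5 for age (2 without any 1 young naïve pool). With all pools the calls of composition were 6 and 5, which include mt-Nd6 both as its share and as its ratio to the other protein-coding genes. The 6 leave out mt-Nd4, whose adjusted p for injury was 0.05 in the exact permutation tests. The counts with 1 pool left out could include such a tie through rounding, so the 6 and the range of 5 to 7 are not strictly comparable. Of all genes, 21.9% to 28.9% were called lower in young and 24.8% to 29.1% in middle-aged mice with 1 pool left out. The nuclear genes called lower in young mice then numbered 14 to 32, with 15 without young injured pool 1 and 14 without young injured pool 3.

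Without mt-Rnr2 the injury difference of all mitochondrial genes was -0.3471 and of rRNA -0.221, both short of the threshold, and the age difference of all mitochondrial genes was -0.0096. Protein-coding genes passed for injury on TMM-adjusted totals (-0.4528). From mean shares, age passed for all mitochondrial genes (0.2565) and rRNA (0.2741). Leaving out 1 pool gave age differences of 0.174 to 0.3467 for all mitochondrial genes, 0.1916 to 0.3645 for rRNA, 0.295 to 0.5159 for tRNA and -0.1742 to 0.0086 for protein-coding genes, and injury differences of -0.4026 to -0.2104 for protein-coding genes.

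Pools with the same number in different groups deviated with correlations between -0.113 and 0.153, so the numbers do not pair them. A replicate block left 5 and 8 members called lower. In the paired permutation test protein-coding genes passed for injury (-0.2994, exact p = 0.03125), the smallest p its 64 arrangements allow. Composition had 0 calls for either factor. The composition tests were adjusted together, and with this smallest p none could pass unless most of them reached it. The paired test therefore cannot decide on composition, and nothing is concluded from these 0 calls.

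Signs changed for genes that passed no threshold, and the cause was not tested beyond the scaling. On library totals, totals without mt-Rnr2 and nuclear totals, young mice gave 0.1497, 0.1133 and 0.1114 for mt-Rnr1, 0.0438, 0.0068 and 0.0048 for mt-Atp8, 0.0868, 0.0491 and 0.0471 for mt-Nd6, 0.1104, 0.0724 and 0.0703 for mt-Cytb, 0.0747, 0.0391 and 0.0371 for Twnk and 0.1595, 0.1233 and 0.1212 for Lrpprc. Middle-aged mice gave 0.0746, 0.0136 and 0.0107 for mt-Cytb, 0.0664 and 0.0033 for mt-Nd6 on the first 2 scales and 0.0144 with the replicate block, and on library totals 0.0114 for mt-Nd5 and 0.0307 for Tfam. Tefm gave -0.0125 in young mice with upper-quartile factors. Leaving out 1 pool ranged in young mice from -0.2776 to 0.0711 for mt-Rnr1, -0.0927 to 0.2254 for mt-Nd5, -0.2937 to 0.0916 for mt-Nd6 and -0.2491 to 0.0792 for mt-Cytb, and in middle-aged mice from -0.2297 to 0.3904 for mt-Atp8, -0.3162 to 0.0994 for mt-Nd5, -0.3306 to 0.1749 for mt-Nd6 and -0.2916 to 0.1762 for mt-Cytb. Of the nuclear genes, Tefm ranged from -0.1264 to 0.2478 in young and -0.00802 to 0.4212 in middle-aged mice, Lrpprc from -0.08112 to 0.05512 in young and Tfam from -0.1721 to 0.09835 in middle-aged mice. The interaction of injury with age ranged from -0.2731 to 0.05428 for mt-Rnr2, -0.3587 to 0.2235 for mt-Ti, -0.5362 to 0.1941 for mt-Tq, -0.1301 to 0.1828 for mt-Co1 and -0.244 to 0.1483 for mt-Nd1, and for mt-Co1 it was -0.04861, -0.07592 and -0.07708 on the same 3 totals. Of all values for single genes under the alternatives, 1113 of 1226 for mitochondrial and 1366 of 1492 for nuclear genes kept their direction and their side of the threshold. Depth limits the tRNA class, at 172 to 663 counts a pool, and mt-Co2, mt-Atp6, mt-Co3 and mt-Nd3, at 19 or fewer each.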
